A study of Mus musculus with 6 samples.

Results

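The interferon-inducible GTPases described here are 10 mouse genes of the immunity-related GTPase (IRG) and guanylate-binding protein (GBP) families. They are Irgm1, Irgm2, Igtp, Iigp1, Tgtp1, Tgtp2 and Ifi47 (IRG) and Gbp2, Gbp3 and Gbp7 (GBP). The members were taken by symbol out of 24732 symbols in the FPKM table, and they had been selected on their measured FPKM values in the same comparison that is shown here. Their values are therefore given as a description and without a test. The cells were mouse female germline stem cells (FGSCs) of strain C57BL/6 at more than 20 passages, grown on inactivated STO fibroblasts, and per the study's methods the FGSC line came from ovaries of neonatal Ddx4-Cre; mT/mG mice. The shCTCF group (3 samples) was infected with a lentivirus that carries a short hairpin RNA against CTCF, a DNA-binding protein that shapes chromatin loops, and infected cells were selected with puromycin. The control group also had 3 samples, and the vector it received is not given in the sources used here. The labels do not say that the samples came from separate cultures, so the p-values below measure only the spread between these samples.

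IRG and GBP proteins are large, interferon-inducible GTPases of cell-autonomous immunity. After interferon binds its receptor, JAK kinases activate STAT factors, which act on GAS and ISRE sites in promoters and also induce IRF1. The IRGM proteins (Irgm1, Irgm2 and Igtp, which is also called Irgm3) sit on the membranes of the cell and hold the effector IRGs inactive there. Effector IRGs (Iigp1, Tgtp1, Tgtp2 and Ifi47) and GBPs then gather on the vacuoles of intracellular pathogens, guided by proteins of the autophagy conjugation system.

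The promoters of 9 members were searched, with windows from a RefSeq promoter table (build GRCm38.p6, 250 bases before to 50 after the gene start). The promoter of Iigp1 was not searched, so nothing is said about its letters. An ISRE-like pattern, the letters GAAA repeated with 2 bases of any kind between them, was searched on both strands. It was found in a promoter of 8 of these 9 members, compared with 3.993% of the 27025 symbols whose promoters were searched. Both shares cover only the promoters that were searched. The windows are shown because they carry the sequence feature that the selection on FPKM did not use. The members were also taken as families known to be interferon-inducible, so this share is a description and was not tested. Each window is written 5′ to 3′ on the strand of the gene, and the capitals mark the match. In Gbp2, Gbp3 and Gbp7 the match lies on the other strand, so its reverse complement is in capitals. Irgm1 and Gbp3 had 2 overlapping matches each, and the capitals run over both. Gbp3 also had another promoter in the table, which held no match and is not shown.
Irgm1 (chr11:48871410-48871475, minus strand): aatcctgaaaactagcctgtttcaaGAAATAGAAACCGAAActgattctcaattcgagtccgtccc
Irgm2 (chr11:58214888-58214947, plus strand): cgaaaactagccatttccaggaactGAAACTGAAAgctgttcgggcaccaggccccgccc
Igtp (chr11:58199497-58199556, plus strand): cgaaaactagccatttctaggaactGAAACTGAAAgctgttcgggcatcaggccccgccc
Tgtp1 (chr11:48992289-48992348, minus strand): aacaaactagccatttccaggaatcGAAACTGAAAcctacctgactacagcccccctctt
Tgtp2 (chr11:49064248-49064307, minus strand): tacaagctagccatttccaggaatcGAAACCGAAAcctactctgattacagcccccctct
Gbp2 (chr3:142620579-142620638, plus strand): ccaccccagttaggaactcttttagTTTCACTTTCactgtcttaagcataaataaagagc
Gbp3 (chr3:142559974-142560039, plus strand): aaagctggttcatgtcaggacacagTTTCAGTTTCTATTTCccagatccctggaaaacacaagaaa
Gbp7 (chr3:142530258-142530317, plus strand): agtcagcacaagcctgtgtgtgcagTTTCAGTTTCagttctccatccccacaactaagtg

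The matches lay between 77 and 15 bases before the gene start. In the promoter of Ifi47 these letters were not found. The GAS-like pattern TTCNNNGAA, which reads the same on both strands, was found in 5 members (Irgm2, Igtp, Tgtp1, Tgtp2 and Gbp7) and in 9.554% of the symbols. In Irgm2, Igtp, Tgtp1 and Tgtp2 its first base lay 11 bases upstream of that of the ISRE-like match and can be read in the windows above. The whole promoters of Irgm2 and Igtp were 72.84% identical and those of Tgtp1 and Tgtp2 66.98%, while the other pairs of members lay between 43.21% and 51.06%. A match is a description of letters and not a measurement of binding.

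The libraries held between 1686052 and 7044272 counts, and control replicate 2 was the smallest. Ctcf, the targeted gene, had 58.2, 56.1 and 53.5 FPKM in control samples and 0.74, 0.55 and 0.629 FPKM after knockdown (limma, difference of -5.12 ± 0.09 (SE) on log2(FPKM + 1), adjusted p = 1.1e-08). In the deposited counts Ctcf was at 0 in all samples, so its change here was measured on FPKM only. The markers that define the labelled germline cells were nearly absent. Dppa3 and Gfra1 were at 0 in all samples, Ddx4, Dazl and Pou5f1 did not exceed 0.182 FPKM, and of the 6 markers only Ifitm3, itself an interferon-inducible gene, reached 1 FPKM. Ifitm3 was at 0 to 1.21 FPKM without knockdown and at 10.4 to 11.1 FPKM with it. Summed mast cell markers were at 1329.6 to 1384 FPKM without and 1500.4 to 1569 FPKM with knockdown, with 4 of 6 tested markers higher and 1 lower (limma). Kit and Gata2 made up most of this sum, Cpa3 fell from 311, 215 and 316 to 103, 81.6 and 79.3 FPKM, Hdc was at 4.07 to 4.49 FPKM without and 79.7 to 94.9 FPKM with knockdown, and Fcer1a was at 0. Of the 10 mast cell markers, 4 stayed under 1 FPKM in all samples (Fcer1a, Ms4a2, Mcpt4 and Tpsb2). Summed macrophage markers were at 103 to 113 and 205 to 241 FPKM, with 4 of 5 tested markers higher and 0 lower. Adgre1 (56.2 to 57.4 and then 65.8 to 85.6 FPKM) and Cd68 (41.8 to 50.1 and then 129 to 143) made up most of this sum. Fcgr1 was at 4.7 to 6.14 and then 5.07 to 5.55 FPKM. Of the 10 macrophage markers, 5 stayed under 1 FPKM in all samples (Csf1r, Itgam, Cd14, C1qa and C1qb), with C1qa and C1qb at 0. Fibroblast markers were at 10.9 to 11.7 and 14.7 to 16.4 FPKM, with 3 of 5 tested markers higher and 2 lower. Among them Dcn went from 2.59 to 2.79 FPKM to 0 and Pdgfrb from 5.6 to 7.01 to between 2.05 and 2.33, Mmp2 was at most at 0.235 FPKM without and at 6.48 to 7.88 FPKM with knockdown, and Col3a1 and Lum were at 0. Lymphocyte markers summed to at most 1.61 FPKM, with Cd3g and Ncr1 at 0. Beside these calls, 28.8% of all genes tested rose and 44.2% fell (limma). Tpsab1, Lyz2, Mpeg1, Thy1 and Mmp2 reached the mean of 1 FPKM needed for testing only through their shCTCF values. Dcn reached it only through its control values. These markers therefore had to differ, and their calls are no support. The part of the cell type markers in the results below was not tested. In bulk samples fewer cells of a type cannot be told apart from less RNA per cell.

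Transcripts of the IRG and GBP genes were scarce in the controls and abundant after CTCF knockdown. Together the 10 members took 0.0010% to 0.0018% of a control sample's summed FPKM and 0.1051% to 0.1198% of a shCTCF sample's. No member exceeded 2.79 FPKM in a control sample. For 9 of the 10 members every shCTCF sample lay above every control sample, and of the 9976 genes that averaged 1 FPKM or more, this was so for 30.8%. Since the members were chosen on this contrast, nothing is read from that count. The median difference of the members was 4.53 on log2(FPKM + 1), a scale that understates the change of low genes, and the median over all 9976 genes was -0.17.

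**Figure D1:**
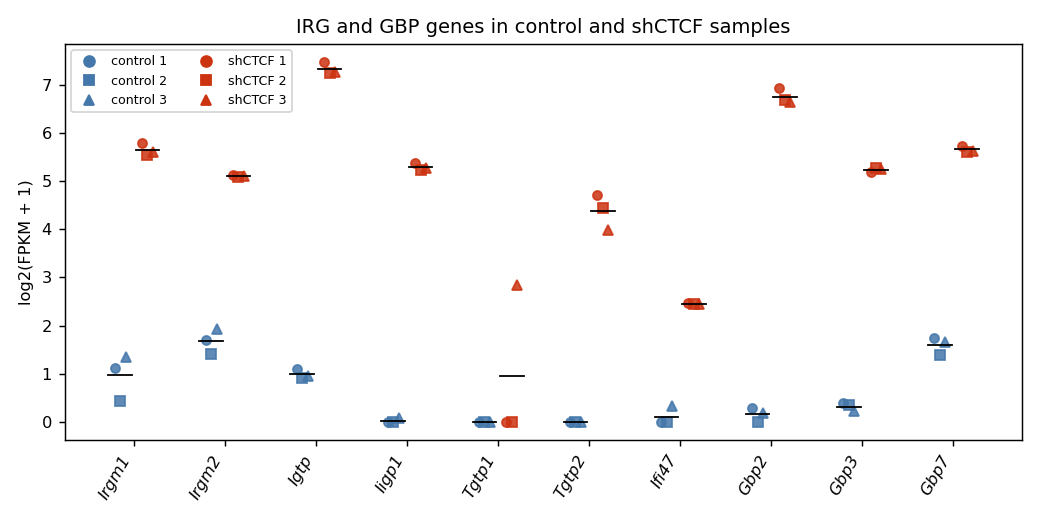
Level of each IRG and GBP gene as log2(FPKM + 1) in the 3 control samples (blue) and the 3 shCTCF samples (red), with black lines at the group means. Apart from Tgtp1, each gene has all its red points above all its blue points.

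Igtp, an IRGM regulator, had the highest level of all members after knockdown. It lies on chromosome 11 of mm9 from 58013058 to 58021094 (plus strand). In control replicates 1, 2 and 3 it had 1.15, 0.893 and 0.945 FPKM, and it had 177, 151 and 152 FPKM in shCTCF replicates 1, 2 and 3. The groups were far apart, and the ratio of the mean FPKM was 161. Irgm2, which lies beside it from 58028479 to 58036285 (plus strand), began from a higher level. The control samples had 2.27, 1.64 and 2.79 FPKM and the knockdown samples 33.8, 33.2 and 33.7, a ratio of 15 between the means. The shCTCF samples were nearly identical to each other for Irgm2 (SD of 0.321 FPKM). Irgm1, from 48678747 to 48684922 on the minus strand of the same chromosome, was at 1.17, 0.346 and 1.55 FPKM without knockdown and at 54.4, 45.6 and 47.5 FPKM with it. The means differed by a ratio of 48.1, and control replicate 2 was the lowest sample for both Irgm1 and Irgm2.

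The effector IRGs were nearly silent in the controls. Iigp1, also known as Irga6, lies on chromosome 18 from 60533270 to 60552283. It was at 0, 0 and 0.0571 FPKM in the controls and at 40.6, 36.4 and 37.8 after knockdown. No fold is given because controls were listed at 0. The division of Iigp1 between its 2 transcript accessions changed from sample to sample, with 29.0, 36.4 and 7.83 FPKM on one and 11.6, 0 and 30.0 on the other, while the sum stayed between 36.4 and 40.6.

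Tgtp1 and Tgtp2, closely related copies that encode Irgb6 proteins, share exons in the annotation used. One of the 2 loci listed for the Tgtp2 accession, from 48798831 to 48805756 on chromosome 11, coincides with the Tgtp1 gene. Tgtp2 was at 0 in all controls and at 25.4, 20.7 and 14.9 FPKM in the shCTCF samples. Tgtp1 was at 0 in all controls and at 0, 0 and 6.21 FPKM after knockdown, so its groups overlapped. In shCTCF replicates 1 and 2 the fragments of the shared locus were listed under Tgtp2 (6.78 and 5.34 FPKM), and in replicate 3 they were listed under Tgtp1. The 2 genes are therefore uncertain as separate measurements. Their sum was 25.4, 20.7 and 21.1 FPKM, whereas the second Tgtp2 locus, which Tgtp1 does not share, was at 18.6, 15.4 and 14.9 FPKM. Ifi47 (Irgd), from 48890089 to 48910489 on the plus strand, had the lowest level of the members other than Tgtp1. Control samples were at 0, 0 and 0.252 FPKM and shCTCF samples at 4.57, 4.42 and 4.43.

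The 3 GBP members are neighbours on the plus strand of chromosome 3. Gbp2, from 142283627 to 142300972, was at 0.227, 0 and 0.142 FPKM in the controls and at 121, 102 and 99.5 after knockdown. The groups did not overlap, and its difference of 6.59 on log2(FPKM + 1) was the largest of the members. Gbp3, from 142223008 to 142236177, was at 0.305, 0.273 and 0.164 FPKM in the controls and at 35.4, 37.4 and 37.2 after knockdown. The shCTCF samples lay close together for Gbp3 (SD of 1.11 FPKM), far above the controls. Gbp7, from 142193300 to 142213115, was the only one of these GBPs above 1 FPKM in the controls. It was at 2.34, 1.61 and 2.16 FPKM in control samples and at 52.4, 47.9 and 48.5 after knockdown, a ratio of 24.4 between the means.

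After knockdown the levels per length fell into an order. Igtp (mean of 159.9 ± 14.8 FPKM, SD, n = 3) was followed by Gbp2 (107 ± 11.5), and the ranges of the 2 genes did not overlap. Gbp7 (49.6 ± 2.45) and Irgm1 (49.1 ± 4.61) did not differ beyond their spread, nor did Iigp1 (38.3 ± 2.16) and Gbp3 (36.7 ± 1.11). Irgm2 (33.5 ± 0.321) and Tgtp2 (20.3 ± 5.24) came next, and Ifi47 (4.47 ± 0.0827) and Tgtp1 (2.07 ± 3.58) were lowest, with overlapping ranges. Igtp and Gbp2 together made up 53.3% of the summed FPKM of the members. In 8 of the 10 members shCTCF replicate 1 was the highest sample.

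The count table gave the same direction where it could count. Fragments on exons shared by several accessions stayed unassigned, so the bases of a gene that belong to no other accession decide what could be counted. All exon bases of Igtp and Irgm2 and 99.02% of those of Gbp2 were free in this sense. For Igtp, the control samples had 31, 8 and 23 counts and the shCTCF samples 3852, 3003 and 3812. Irgm2 had 95, 17 and 122 counts and then 1304, 1165 and 1455. Gbp2 had 6, 0 and 4 counts and then 3202, 2411 and 3038. In each of these genes the groups were far apart. Tgtp2, with 50.13% of its bases free, had 0 counts in all controls and 532, 400 and 500 after knockdown. The other members had at most 5.25% free bases. Irgm1 had 0, 0 and 1 counts and then 77, 51 and 53, and Iigp1 had 0 in the controls and 4, 10 and 16. Gbp7 and Tgtp1 had 0 counts in all samples, and Gbp3 and Ifi47 had at most 2 and 1 counts in a sample, so that the count table did not measure these 4 genes. Per kilobase of free exon, the shCTCF samples had 277.705 to 323.571 CPM (counts scaled to the library total) for Igtp, 184.174 to 223.829 for Gbp2, 61.022 to 63.06 for Irgm2 and 26.093 to 32.013 for Tgtp2, the order these 4 genes had on FPKM.

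**Figure D2:**
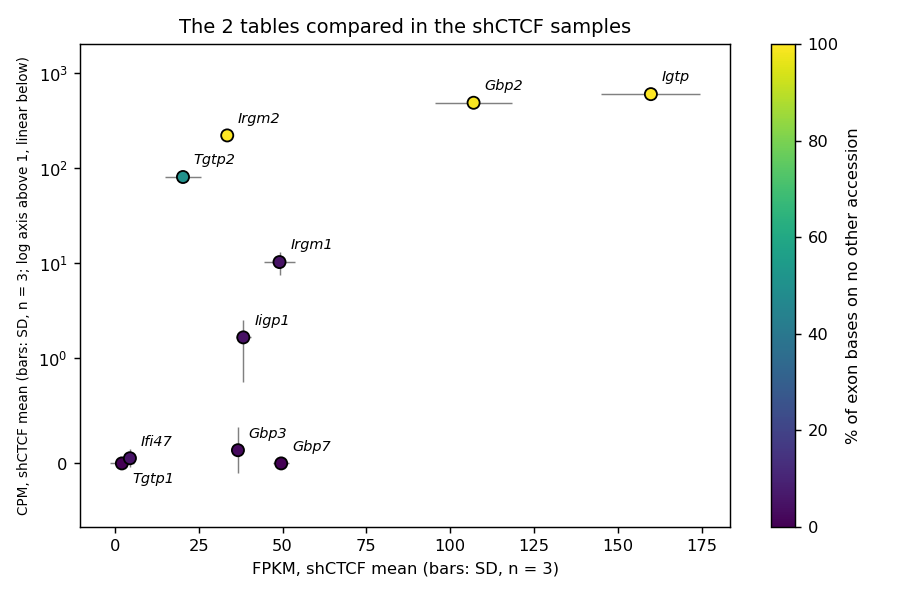
Mean FPKM (x axis) and mean CPM (y axis, logarithmic above 1 and linear below) of the members in the shCTCF group, with SD bars (n = 3), coloured by the percentage of exon bases on no other accession. Gbp7 and Gbp3 lie near 0 CPM at 49.6 and 36.7 FPKM, with 0.16% and 2.52% free bases.

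Other genes of both families were likewise higher after knockdown. Of 19 further IRG and GBP genes, 18 were under 1 FPKM in every control. On FPKM, 12 of the 19 could be tested, and 12 rose and 0 fell in the shCTCF group (limma, adjusted p under 0.05), where 28.8% of all genes tested rose and 44.2% fell. Of the 12 genes, only Irgq had a control mean of at least 1 FPKM. The others passed the filter through their shCTCF values alone and so had to differ, and their count is no support. Their median difference was 2.49. On counts, 12 of the 19 were tested with edgeR, and 12 rose and 0 fell, beside 34.8% of all genes that rose and 34.3% that fell. These were not the same 12 genes as on FPKM. Gbp4, Gbp9, Gbp11, Gvin1 and Gm4070 were tested on FPKM only. The limit of the filter applies here too. Of the genes tested on counts, only Irgq had more than 6 counts in a control sample. Of all 19 genes, tested or not, 11 had 0 counts in every control and counts in the shCTCF group. Among these 11, 9930111J21Rik2, Irgc1, Gbp4 and Gbp9 had at most 4 counts in a shCTCF sample. The matching share of all genes was not calculated, so nothing is read from this number.

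The highest of them were GBPs of chromosome 5. Gbp11 was at 0.21, 0.133 and 0.16 FPKM in the controls and 40.6, 42.9 and 44.1 after knockdown (a difference of 5.22 on log2(FPKM + 1)). Gbp4 was at 0.346, 0.336 and 0.518 FPKM and then 41.9, 43.0 and 42.0 (4.95). The levels of these 2 genes after knockdown lay between those of Gbp3 and Gbp7. The count table did not measure them. Gbp11 had 0 counts in all samples and Gbp4 at most 4 in a sample, with 0.15% and 0.83% free bases. Gbp9 rose from 0.46 to 0.875 FPKM over the controls to 10.6 to 12, Gbp6 from at most 0.251 to between 8.59 and 9.61, Gbp8 from at most 0.0378 to between 6.56 and 7.27, and Gbp10 from 0 to between 3.32 and 4.1. Gbp5 on chromosome 3 rose from 0 to between 2.93 and 3.92 FPKM. The 6 GBPs of chromosome 5 summed to 1.18 to 1.59 FPKM without knockdown and 113 to 118 with it, the 5 of chromosome 3 to 1.88 to 2.87 and 190 to 213, and the 10 IRG genes of chromosome 11 to 3.02 to 5.66 and 260.3 to 301.

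Among the IRGs outside the members, Gm4951 on chromosome 18 rose from at most 0.0328 FPKM to between 5.34 and 5.95, and Gm12250 from 0.129 to 0.138 to between 4.28 and 4.86. Irgq, an IRG-like gene, was at 1.35, 1.59 and 1.77 FPKM in the controls and 4.17, 3.56 and 3.39 after knockdown (0.87 ± 0.12 (SE), limma adjusted p = 0.00035). It had the smallest difference of the family genes tested. The very large GTPase genes Gvin1 and Gm4070 share exons and cannot be read apart. Gvin1 was at 0.156 to 0.327 FPKM and then 1.67 to 1.94, and Gm4070 at 0.171 to 0.37 and then 2.02 to 2.8. The IRG genes 9930111J21Rik1 and 9930111J21Rik2 were at 0 FPKM in all samples, although the first had 24, 20 and 20 counts in the shCTCF samples and 0 in the controls.

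**Figure D3:**
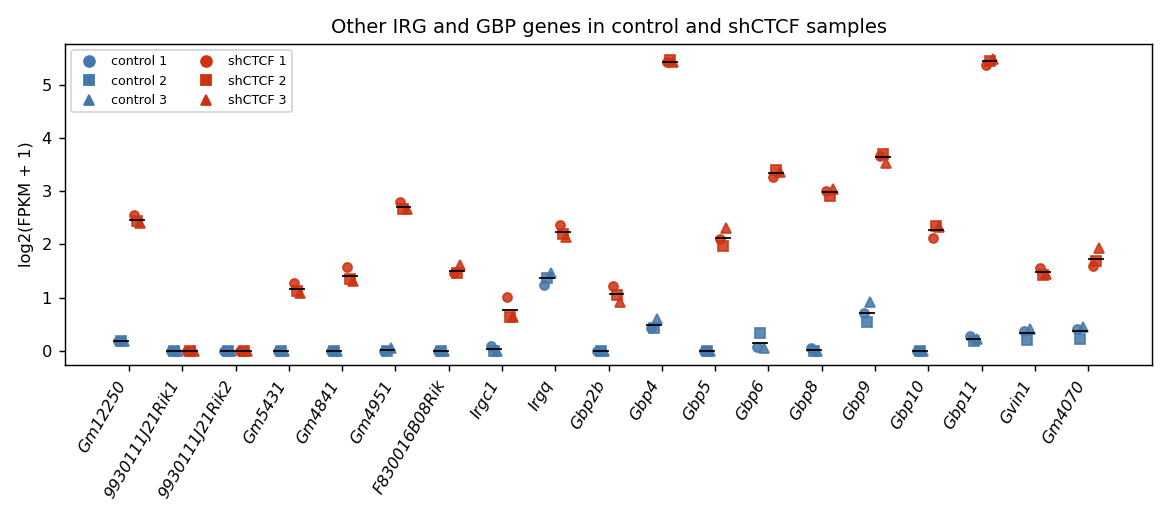
Level of 19 further IRG and GBP genes as log2(FPKM + 1) in control (blue) and shCTCF (red) samples, with black lines at the group means. Gbp4 and Gbp11 reach the highest levels, and Irgq is the gene with the highest control level.

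The 42 genes within 250 kb of a member included 10 olfactory receptor genes, none of which reached 1 FPKM, and 15 genes at 0 in all samples. Of 21 neighbours tested on FPKM, 8 rose, 10 fell and 3 did not pass the test (limma), shares near those of all genes tested (28.8% rose and 44.2% fell). The median difference was -0.15, beside -0.17 over all genes. On counts 5 of 15 rose and 5 fell (edgeR), beside 34.8% and 34.3%. Scaling to a common median, which moved the median of all genes to -0.01, gave 8 neighbours that rose and 7 that fell. The neighbours that rose most were Synpo, which encodes an actin-associated protein and lies 201 kb from Iigp1 (a difference of 2.18 on log2(FPKM + 1), in a gene that passed the filter only through its shCTCF values), Smim3 at 81.6 kb from Iigp1 (1.46) and Psme2b, a proteasome activator gene at 38.9 kb from Tgtp1 (0.95). Those that fell most were Gemin5, an RNA-binding factor of the SMN complex 31.0 kb from Igtp (-1.36 ± 0.07 (SE), limma adjusted p = 2e-06), Zfp692 at 84.3 kb from Irgm2 (-1.22) and Kyat3, an aminotransferase gene at 63.0 kb from Gbp2 (-1.20). Gm12185, an IRG gene in this interval that was in none of the lists by role, was at 0 FPKM in the controls and at 1.09, 0.857 and 0.791 after knockdown. It was singled out after its values had been seen.

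**Figure D4:**
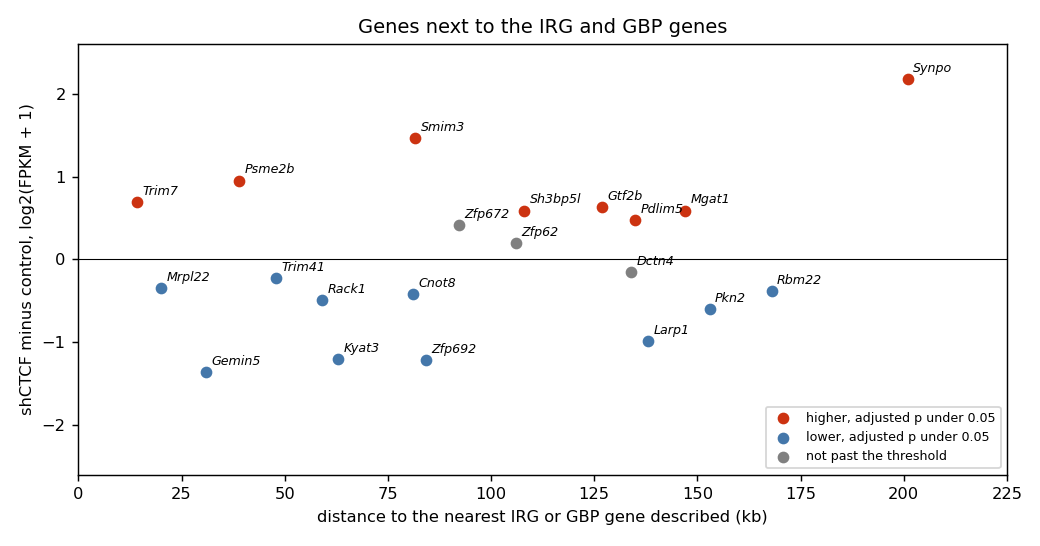
Difference in log2(FPKM + 1) between the shCTCF and control groups for the 21 neighbouring genes tested, by distance to the nearest member in kb. Red points rose, blue points fell and grey points did not pass the test, and both colours occur at short and at long distances.

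The 4 interferon genes examined were listed at 0, and most genes of the interferon response pathway were higher. Ifng, Ifnb1, Ifne and Ifnk were at 0 FPKM in all 6 samples. Of 25 genes for interferons, receptors, signalling and regulators, 20 were tested on FPKM, and 16 rose and 2 fell (limma), where 28.8% of all genes tested rose and 44.2% fell. On counts 9 of 11 rose and 1 fell (edgeR), beside 34.8% and 34.3% of all genes tested. The median difference of the 20 genes was 1.32. The subunits of the interferon gamma receptor went in opposite directions. Ifngr1 was at 20.2, 17.8 and 18.2 FPKM in the controls and 12.7, 9.9 and 12 after knockdown (-0.66 ± 0.11 (SE), limma adjusted p = 0.00077), whereas Ifngr2 was at 15.7, 18.5 and 16.6 and then 89.5, 84.9 and 79.6 (2.26 ± 0.08, limma adjusted p = 3.4e-07). Irf1, which binds ISRE sites, was at 5.43, 6.42 and 6.22 FPKM and then 85.7, 82.5 and 70.3 (3.52 ± 0.1, limma adjusted p = 1.1e-07).

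The largest rises of this group were in Usp18, Irf7 and Socs3. Usp18, a protease that restrains type I interferon signalling, was at 0.472, 0 and 0.589 FPKM and then 104, 96.8 and 93.9. Irf7, a factor that is itself interferon-induced, was at 0.36 to 0.654 FPKM and then 47.3 to 50.9. Both Usp18 and Irf7 passed the filter only through their shCTCF values and so had to differ. Socs3, an inhibitor of cytokine receptor signalling, was at 11.6 to 15 FPKM and then 169.6 to 177. Irf3, which acts in the first induction of type I interferon, fell from 18.4, 24.8 and 19.9 FPKM to 11.4, 9.91 and 9.83 (-0.95 ± 0.12, limma adjusted p = 0.00021). Together with Ifngr1 it made up the genes of this group that fell.

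**Figure D5:**
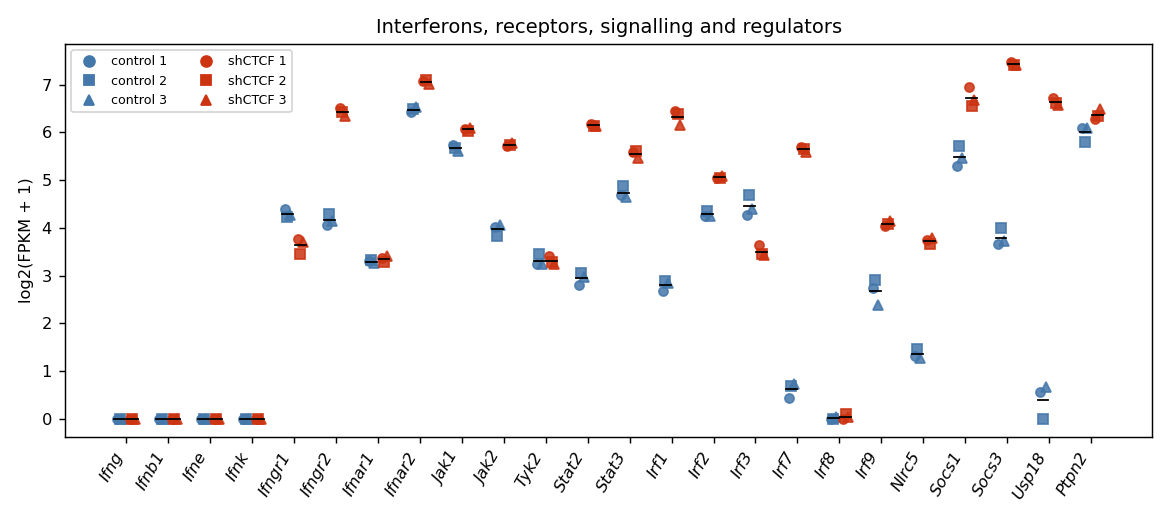
Level of genes for interferons, receptors, signalling and regulators as log2(FPKM + 1) in control (blue) and shCTCF (red) samples, with black lines at the group means. The 4 interferon genes lie at 0, Ifngr1 and Irf3 are lower in the shCTCF group, and Irf7 and Usp18 show the widest gaps.

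Genes that modify the GTPases or bring them to vacuoles were also examined. Of 19 such genes, 18 were tested on FPKM, and 9 rose, 5 fell and 4 did not pass the test (limma), beside 28.8% of all genes tested that rose and 44.2% that fell. The median difference was 0.33. With samples scaled to a common median, 12 rose and 3 fell. On counts 5 of 10 rose and 3 fell (edgeR), beside 34.8% and 34.3% of all genes tested. The ubiquitin ligase gene Trim21 rose from 0.466, 0.664 and 0.926 FPKM to 9.45, 8.64 and 9.15 (a difference of 2.59, in a gene that passed the filter only through its shCTCF values). Sqstm1, which encodes the autophagy receptor p62, rose from 366 to 449.6 FPKM over the controls to 1362 to 1459, and Gabarapl1, an ATG8 protein, from 25.6 to 31.8 to between 82.4 and 88.2. The genes that fell most were Atg4b, a protease that processes ATG8 proteins (-0.97 ± 0.1), Rce1, a protease that trims prenylated proteins (-0.91 ± 0.13), and Fntb, a farnesyltransferase subunit (-0.70 ± 0.15, limma adjusted p = 0.0036).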

How the data were processed

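RNA was sequenced from 3 control and 3 shCTCF samples. The authors trimmed the reads and aligned them to mm9 with HISAT2 (4.8.2 as given in the submitters' processing notes). The deposited counts per RefSeq accession were made by the authors with featureCounts 1.6.2 without strand, and fragments on more than 1 accession were left unassigned. The deposited FPKM values were calculated by the authors with Cufflinks 2.2.1, normalized for transcript length and depth. No value column was left without a sample (0 columns).

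Both tables were summed per symbol with a RefSeq gene table of GRCm38.p6, used for names. A symbol was found for 41685 of 41876 FPKM rows and 41186 of 41388 count accessions, and unmatched accessions held at most 0.603% of a sample's counts. Genes that averaged 1 FPKM or more were tested on log2(FPKM + 1) with limma 3.58.1 (eBayes with trend), and counts with edgeR 4.0.16 (quasi-likelihood, TMM, filterByExpr) in R 4.3.3. Two-sided p-values were corrected over the whole of each table by Benjamini-Hochberg adjustment, with a threshold of 0.05. The scripts were tested on simulated data.

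The members and gene lists were chosen with earlier results of these data known. The named genes were the 10 members, Ctcf, each further family gene with a mean of at least 1 FPKM, Ifng, Ifngr1, Ifngr2, Irf1, and the 3 largest rises and 3 largest falls past the test in each of the other lists. A further gene named by this rule is not reported here. Alternatives were other pseudocounts, filters, scalings, rows, tables and tests (DESeq2 1.42.0), a replicate block, and each replicate left out. Promoter windows carry coordinates of GRCm38.p6, and all other coordinates are those of mm9 in the files.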

Additional observations from a re-analysis of the deposited data

How the results depend on the processing

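The number of members with no overlap between groups was 9 on FPKM under each alternative tried, and 6 on the count table. Among all genes that averaged 1 FPKM or more, 30.8% had every shCTCF sample above every control sample. Pseudocounts cannot change the number for the members, and leaving out a replicate cannot lower it. The members were also chosen on this contrast, so nothing is read from its stability. With Tgtp1 and Tgtp2 summed as 1 gene, an alternative chosen after seeing the data, the 9 were all the genes that remained. The median difference of the members was 4.53 and moved to 6.2 and 7.22 with pseudocounts of 0.1 and 0.01, to 4.12 with the row of the highest mean for each symbol, and to 3.29 on the count table. Both count table values include Gbp3, Gbp7, Ifi47 and Tgtp1, which that table did not measure. The difference there is on log2 CPM and not on log2(FPKM + 1). Leaving out each replicate gave 4.4 to 4.64. A filter at a mean of 5 FPKM left fewer genes to test, with 3 further family genes that rose and 5 neighbours that rose. With the count table in place of FPKM, 9 genes of the interferon pathway rose and 1 fell, 5 targeting genes rose and 3 fell, and 5 neighbours rose and 5 fell. With each sample scaled to the same median, 3 targeting genes fell, and Fnta, Icmt, Mrpl22, Rbm22 and Trim41 lost their call. Over all genes tested on FPKM, this scaling moved the calls from 2876 higher and 4405 lower to 3481 higher and 3606 lower, and scaling counts by library size only moved them from 2553 higher and 2521 lower to 2167 higher and 3059 lower. With library size only, 9 neighbours fell on counts. With the replicate block, 4 targeting genes and 9 neighbours fell on FPKM, compared with 5 and 10 without it, and the difference of Ctcf was -5.12. Same-numbered samples had correlations of -0.041, 0.018 and 0.0395 in their deviations from the group means. The main tests did not pair them, and the labels do not say whether they share more than a number. The depth of control replicate 2 (1686052 counts) limits the counts of genes that are low in the controls.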
